A study of Homo sapiens with 4 samples.

Results

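The genes described are 9 transcription factors of Mullerian and ovarian epithelium: PAX2, PAX8, WT1, SOX17, EMX2, LHX1, MECOM, FOXA2 and ESR1. They were taken by gene symbol from the 58051 rows of the deposited count table, each symbol matching 1 row. Poly(A) RNA was sequenced from IGROV1, a human cell line established from an ovarian carcinoma. Wild-type cells (WT, labelled susceptible to cisplatin) gave 2 libraries, and a cisplatin-resistant line derived from them (CR) gave 2. The CR line was selected with cisplatin, a platinum drug that crosslinks DNA, by exposures of 4 hours at rising concentration, each followed by 3 weeks without drug, over 5 months and 6 cycles. Both lines were harvested untreated in log growth. The comparison asks how the resistant line, in drug-free medium, differs from its parent. With 1 parent and 1 selected line, p-values here describe variation among libraries of each line and not among independent selections.

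PAX2 and PAX8 are closely related paired box factors. In mouse they act with the LIM homeobox factor Lhx1 and the homeobox factor Emx2 in the intermediate mesoderm and the duct epithelium that becomes oviduct and uterus. PAX8 stays on in tubal secretory cells and in most ovarian carcinomas, where pathologists use it as a lineage stain, and it works with SOX17, an SRY-related HMG box factor. WT1, a zinc finger factor of mesothelium, kidney and gonad, is a stain of serous ovarian carcinoma. MECOM is a zinc finger factor of the PRDM family whose locus is often amplified in ovarian carcinoma. FOXA2 is a forkhead factor of endometrial glands and endoderm, and ESR1 is oestrogen receptor alpha.

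Only PAX2 changed by the test. It rose from 2.21 ± 0.994 to 46.2 ± 0.998 CPM (the count scaled to a common effective library size; values are mean ± SD with n = 2 in each line), 21.0-fold. PAX8 remained the most abundant of the 9 in both lines, at 416 ± 184 CPM in WT and 397 ± 2.503 CPM in CR. SOX17 and MECOM were also well expressed in both, and LHX1 was low in both. WT1, FOXA2, ESR1 and EMX2 had few or no counts in any library. Of the 9 factors, 5 passed the filter on low counts (scaled to library size, a count of about 10 in at least 2 libraries), and among them 1 rose and 0 fell. In the same fit, 5.44% of the 17304 genes tested were higher in CR and 8.1% lower, 13.5% in all (edgeR's quasi-likelihood test, calling genes at a Benjamini-Hochberg adjusted p of 0.05 or less over the whole table).

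The libraries held 23886257 to 24727362 counts. The WT pair was the looser one. The spread of log2 ratios between replicates (median absolute deviation over tested genes) was 0.645 in WT and 0.246 in CR, and each pair differed beyond counting noise (chi-square per degree of freedom 50.9 and 8.67). As a check of the epithelial label, KRT8 and KRT18, keratins of simple epithelia, stood at 1622 ± 195 and 1193 ± 284 CPM in WT and 628 ± 10.9 and 683 ± 76.5 CPM in CR. EPCAM, an epithelial adhesion molecule, was present in all libraries, while GRHL2 and ESRP1, regulators of epithelial identity, had 0 counts in all 4. The ovarian granulosa factor FOXL2 also had 0 counts in every library.

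Because PAX2 and PAX8 are paralogs, reads could in principle be shared between them. The most alike stretch of 90 coding bases, within the part that encodes the DNA-binding paired domain, is shown to let the reader see how far the copies differ. It was found by comparing, without gaps, windows at nearby positions in the longest annotated coding sequences of both genes, in GENCODE 29. Windows further apart in position were not compared. For PAX2 it is coding bases 301 to 390, in exon 3 at chr10:100750782-100750871 on the plus strand (GRCh38), and for PAX8 coding bases 280 to 369, in exon 4 at chr2:113244447-113244536 on the minus strand. Capitals mark the 9 positions where they differ, and the other 81 of 90 are the same:
PAX2: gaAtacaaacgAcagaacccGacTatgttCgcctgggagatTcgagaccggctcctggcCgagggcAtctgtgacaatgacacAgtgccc
PAX8: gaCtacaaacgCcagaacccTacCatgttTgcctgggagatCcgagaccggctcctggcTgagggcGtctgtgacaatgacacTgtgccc
The differing positions are scattered along the stretch. Over all annotated transcripts, the longest run shared by PAX2 and PAX8 was 20 bases, and 0 of 6470 different words of 50 bases in PAX2 transcripts occurred in PAX8. The same comparison with PAX5, the remaining gene of their subfamily, gave a longest run of 14 bases with PAX2 and 21 with PAX8.

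The windows at the annotated starts of PAX2, the factor that rose, and of PAX8, its abundant partner, come from RefSeq (GRCh38.p14) and run from 250 bases before the start to 50 after it. Gene counts do not show which start was used. Matches to 7 motifs on either strand are in capitals. The motifs were the GC box GGGCGG, held by 45.0% of all 35116 windows in the table, the CCAAT box CCAAT (34.6%), the TATA box TATAAA (11.5%), the SOX core AACAAT (10.1%), the homeobox core TAATTA (4.84%), the nuclear receptor element AGGTCA (13.8%) and the forkhead core TGTTTAC (3.42%). PAX2 has 2 such windows, at chr10:100735146-100735445 and chr10:100745332-100745631 on the plus strand, and PAX8 has 1 at chr2:113278872-113279171 on the minus strand:
PAX2 first start: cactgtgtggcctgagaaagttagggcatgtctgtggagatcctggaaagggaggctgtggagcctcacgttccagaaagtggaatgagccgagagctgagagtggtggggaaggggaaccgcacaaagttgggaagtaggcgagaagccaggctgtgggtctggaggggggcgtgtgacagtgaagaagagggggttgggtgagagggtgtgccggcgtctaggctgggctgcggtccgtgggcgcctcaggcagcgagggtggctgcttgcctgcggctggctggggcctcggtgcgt
PAX2 second start: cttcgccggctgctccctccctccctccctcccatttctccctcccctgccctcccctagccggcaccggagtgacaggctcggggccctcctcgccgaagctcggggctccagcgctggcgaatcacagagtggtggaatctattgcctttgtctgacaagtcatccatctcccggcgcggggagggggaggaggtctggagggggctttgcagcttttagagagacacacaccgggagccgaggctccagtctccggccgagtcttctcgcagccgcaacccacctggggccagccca
PAX8: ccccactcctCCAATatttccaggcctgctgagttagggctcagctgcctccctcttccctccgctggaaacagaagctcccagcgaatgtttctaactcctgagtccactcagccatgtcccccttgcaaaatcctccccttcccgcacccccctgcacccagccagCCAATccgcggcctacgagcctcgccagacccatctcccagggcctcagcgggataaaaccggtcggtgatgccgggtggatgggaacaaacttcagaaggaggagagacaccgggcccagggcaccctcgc
Neither PAX2 window held any of the 7, and the PAX8 window held CCAAT and no other. The PAX2 windows held 14 and 19 CG dinucleotides and the PAX8 window 13, against a median of 14 over all windows. These matches describe the letters only.

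PAX2 (chromosome 10, 100735603 to 100829941, plus strand, protein coding) had 68 and 36 counts in the WT libraries and 1179 and 1113 in the CR libraries. Both CR libraries lay far above both WT libraries, and the CR pair agreed more closely than the WT pair. The log2 fold change was 4.38 (SE 0.36, 95% interval 3.53 to 5.24; edgeR adjusted p = 0.000537). The ratio of summed counts had a 95% counting interval of 17.2 to 25.8, which covers counting error only. With 1 library left out at a time the log2 fold change ranged from 3.99 to 4.94, and the call was kept in each of those 4 fits.

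**Figure D1:**
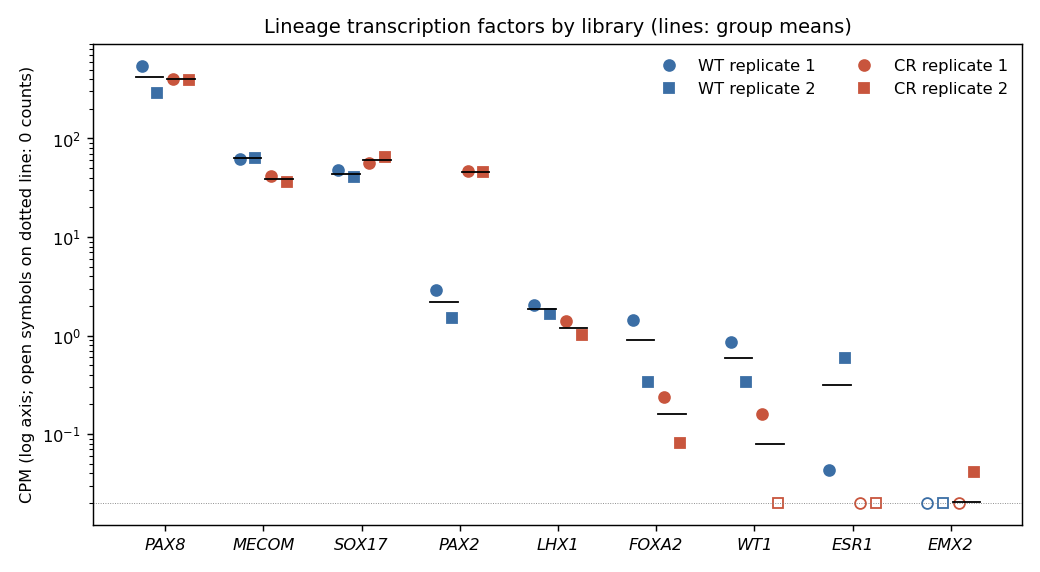
CPM of each factor on a log axis in the 4 libraries (circles replicate 1, squares replicate 2, blue WT, red CR; black lines are group means; open symbols on the dotted line mark 0 counts). PAX2 is the factor whose CR libraries, at 46.9 and 45.5 CPM, stand far above its WT libraries, at 2.91 and 1.51 CPM, while PAX8 stays near 400 CPM in CR between its WT values.

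PAX8 (chromosome 2, 113215997 to 113278950, minus strand) had 12738 and 6832 counts in WT and 10016 and 9662 in CR. The CR libraries were nearly equal and lay between the WT libraries, which differed from each other 1.91-fold in CPM. The log2 fold change was -0.07 with a 95% interval of -0.77 to 0.63 (edgeR adjusted p = 0.926), so a change within that interval was not excluded. The value turned with the WT library used: it was 0.48 without WT replicate 1 and -0.46 without WT replicate 2. Of all genes tested, 20.1% differed between the WT libraries by at least as large a ratio as PAX8 did. PAX8-AS1, a noncoding RNA on the opposite strand whose exons overlap 685 bases (9.26%) of the PAX8 exons, had 1154 and 1617 counts in WT and 2348 and 1798 in CR (log2 fold change 0.51; edgeR adjusted p = 0.254). How the counting treated strand is not given in the sources used here. Reads from the shared bases may therefore not have been told apart.

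The level of PAX2 relative to PAX8 can be read within each library. Per kb of exon, PAX8 stood at 73.7 and 38.7 CPM in WT and 53.9 and 53.4 CPM in CR. PAX2 stood at 0.467 and 0.241 CPM per kb in WT and 7.52 and 7.29 CPM per kb in CR. PAX2 thus made up 0.629% and 0.621% of the summed level of both genes in WT and 12.2% and 12.01% in CR. The replicates of a group lay close together on this measure, although PAX2 and PAX8 each differed between the WT libraries, 1.93-fold and 1.91-fold. The WT shares rest on only 68 and 36 PAX2 counts, so their closeness is finer than counting error allows to be read. PAX8 exceeded PAX2 by 158-fold and 160-fold per length in WT and by 7.17-fold and 7.32-fold in CR. PAX8 therefore stayed the more abundant paralog in the resistant line.

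**Figure D2:**
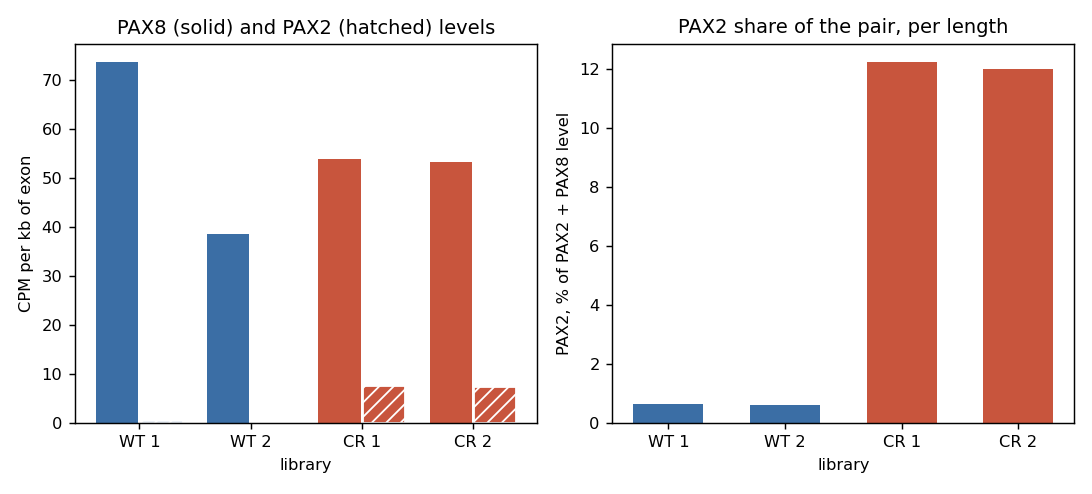
Left, CPM per kb of exon of PAX8 (solid bars) and PAX2 (hatched bars) in each library; right, PAX2 as a percentage of their summed level per length. PAX2 is near 0.6% of the pair in both WT libraries (0.629% and 0.621%) and near 12% in both CR libraries (12.2% and 12.01%).

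SOX17 (chromosome 8), which pairs with PAX8 in tubal and ovarian cancer cells, had 1110 and 970 counts in WT and 1432 and 1595 in CR. SOX17 stood at 57.0 and 65.2 CPM in CR and 47.6 and 40.6 CPM in WT. The log2 fold change of 0.47 (SE 0.22, 95% interval -0.04 to 0.98) did not pass (edgeR adjusted p = 0.23). Without WT replicate 1 it was 0.59 (adjusted p = 0.000514) and without WT replicate 2 it was 0.36 (adjusted p = 0.0383). In those fits the spread comes from the tighter CR pair alone, and calls over all genes rose from 942 and 1402 (higher and lower) to 3647 and 3715 and to 3882 and 4004.

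MECOM (chromosome 3, 169083499 to 169663618, minus strand) had 1450 and 1513 counts in WT and 1055 and 887 in CR. MECOM stood at 62.1 and 63.4 CPM in WT and 42.0 and 36.3 CPM in CR. The log2 fold change was -0.68 (SE 0.21), and its unadjusted 95% interval, -1.18 to -0.18, lay below 0. After adjustment over all genes it did not pass (edgeR adjusted p = 0.0858). The log2 fold change was -0.69 and -0.67 with either WT library left out, and -0.79 and -0.57 with either CR library left out.

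LHX1 (chromosome 17, 36936785 to 36944612, plus strand) had 48 and 40 counts in WT and 35 and 25 in CR. The group means were 1.87 ± 0.270 CPM in WT and 1.21 ± 0.262 CPM in CR, and both CR libraries lay below both WT libraries. The ratio of WT to CR was 1.54, with a 95% counting interval of 1.10 to 2.17 that covers counting error only. The log2 fold change of -0.62 did not pass (95% interval -1.61 to 0.37, edgeR adjusted p = 0.425), and a change within that interval was not excluded. Its divergent noncoding neighbour LHX1-DT, which starts 0.124 kb upstream, had 57 and 74 counts in WT and 58 and 67 in CR, and these ranges overlapped.

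**Figure D3:**
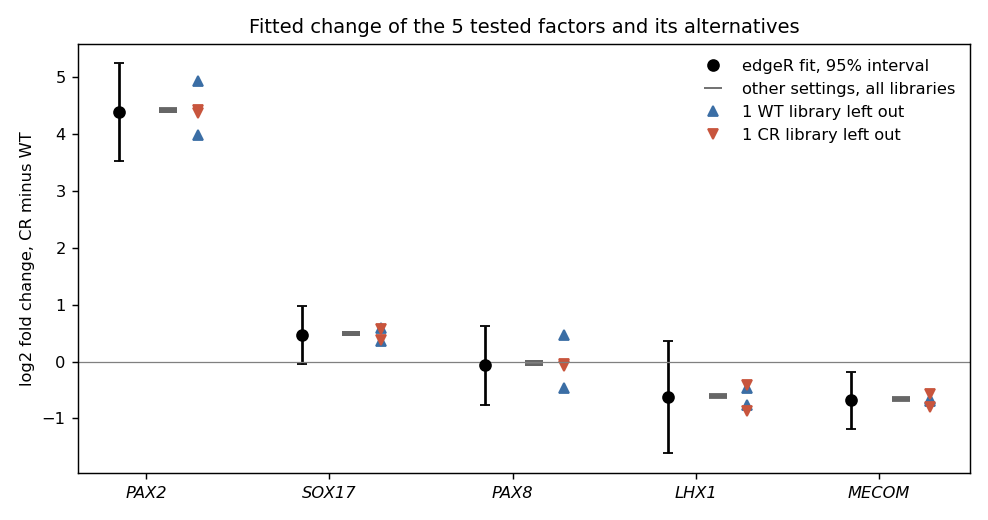
Log2 fold change, CR minus WT, of the 5 tested factors: black points with 95% intervals are the edgeR fit, dashes are other settings on all libraries, and triangles leave out 1 library (upward blue WT, downward red CR). PAX2 keeps values of 3.99 to 4.94 throughout, while PAX8 lies on either side of 0 depending on the WT library left out.

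The other 4 factors were too low to be tested. WT1 (chromosome 11, 32387775 to 32435630, minus strand) had 20 and 8 counts in WT and 4 and 0 in CR, a ratio of WT to CR of 7.35 with a 95% counting interval of 2.57 to 28.8. Its antisense partner WT1-AS had 0 counts in all libraries. FOXA2 (chromosome 20, 22581005 to 22585455, minus strand) had 34 and 8 counts in WT and 6 and 2 in CR, a ratio of 5.51 (interval 2.56 to 13.6). In both genes the WT libraries differed strongly, 2.56-fold for WT1 and 4.35-fold for FOXA2.

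ESR1 (chromosome 6, 151656691 to 152129619, plus strand) had 1 and 14 counts in WT and 0 and 0 in CR. With the CR group set at the floor of 3 counts, ESR1 was 5.25-fold lower in CR. That ratio takes the 15 WT counts as exact, and 14 of them came from 1 library. EMX2 (chromosome 10, 117542444 to 117549546, plus strand) had 0 counts in 3 libraries and 1 in CR replicate 2, and EMX2OS on its opposite strand had 0 in all. Fitted with no low-count filter, over 32907 genes, WT1 (edgeR adjusted p = 0.0378), FOXA2 (0.0256) and ESR1 (0.0299) were called lower in CR, from these few counts, and EMX2 was not (0.726).

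Per kb of exon, the order of mean levels in WT was PAX8 (56.2 ± 24.8 CPM per kb), SOX17 (18.8 ± 2.09), MECOM (6.89 ± 0.0966), LHX1 (0.382 ± 0.0552), PAX2 (0.354 ± 0.159), FOXA2 (0.344 ± 0.305), WT1 (0.145 ± 0.0897), ESR1 (0.0227 ± 0.0277) and EMX2 at 0. LHX1, PAX2 and FOXA2 did not differ beyond their spread, nor did FOXA2 and WT1. In CR the order was PAX8 (53.6 ± 0.338 CPM per kb), SOX17 (26.1 ± 2.49), PAX2 (7.41 ± 0.160), MECOM (4.30 ± 0.444), LHX1 (0.247 ± 0.0537), FOXA2 (0.0616 ± 0.0427), WT1 (0.0194 ± 0.0274), EMX2 (0.00627 ± 0.00887) and ESR1 at 0. PAX2 moved from among the barely detected factors to above MECOM, with no overlap between PAX2 and MECOM in the CR libraries. Against all tested genes, the PAX2 mean exceeded 14.5% of them in WT and 67.2% in CR, and that of PAX8 96.1% and 96.3%. In CR, the libraries overlapped between FOXA2 and WT1, between WT1 and EMX2 and between EMX2 and ESR1, while FOXA2 lay above EMX2 and ESR1.

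The protein-coding genes whose profile over the 4 libraries was most like that of PAX2 (smallest distance between centred log2 CPM values) were ZNF541, TNK1 and COL13A1, at distances of 0.048, 0.14 and 0.31 on the log2 scale. ZNF541 had 18 and 9 counts in WT and 337 and 330 in CR. Those nearest to PAX8 were VWA3A, RAD9A and STK11IP, to SOX17 SAP30L, BNIP3 and LMF1, to LHX1 BIN3, SBF1 and VIPR1, and to MECOM PLEKHG3, DDR1 and TRIM5. With 4 libraries, such likeness is a description only.

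Genes starting within 250 kb of a factor were examined, 58 in all, of which 20 were tested, 2 rose and 1 fell. Over the whole table, 5.44% of tested genes were higher in CR and 8.1% lower, so these few calls are given as a description only. Around PAX2, 8 genes start in that window and 5 were tested. Those 5, SEC31B, HIF1AN, NDUFB8, SLF2 and SEMA4G, had log2 fold changes of -0.30 to 0.24, and 0 passed (edgeR; adjusted p 0.423 to 0.997). Around MECOM, LRRC34, which encodes a leucine-rich repeat protein and starts 149 kb upstream, rose from 1 and 3 counts to 231 and 212 (log2 fold change 6.64; edgeR adjusted p = 0.000415), while MYNN, 109 kb upstream, had a log2 fold change of -0.04 (adjusted p = 0.955). Around PAX8, PSD4, an exchange factor for ARF6, 122 kb downstream, fell from 737 and 580 counts to 231 and 257 (log2 fold change -1.503; adjusted p = 0.00972). Near ESR1, CCDC170, 163 kb upstream, rose from 4 and 3 counts to 33 and 36 (adjusted p = 0.0108), while ESR1 had 0 counts in CR.

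**Figure D4:**
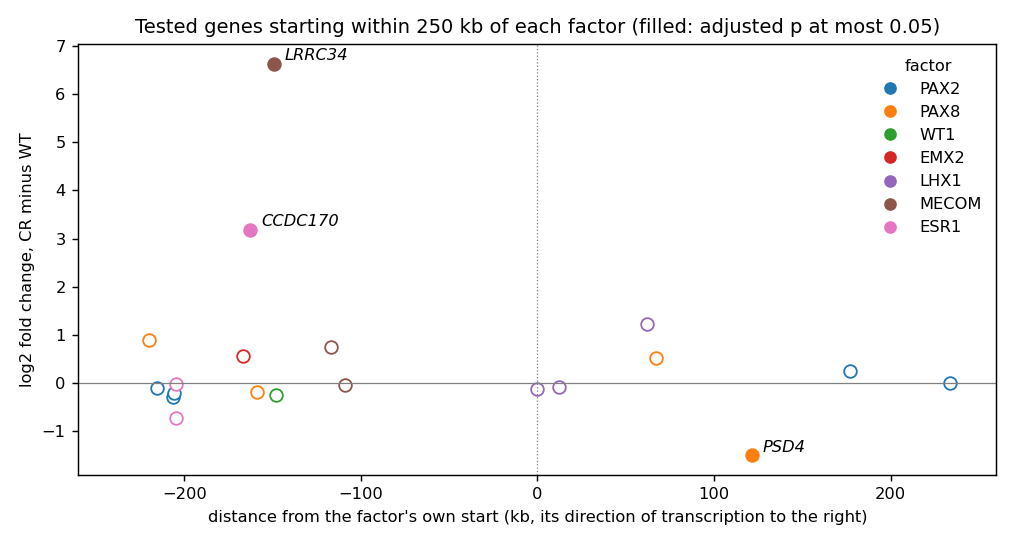
Log2 fold change, CR minus WT, of the 20 tested genes that start within 250 kb of a factor, by distance in kb from its start (its direction of transcription to the right); colours name the factor and filled points have an adjusted p of at most 0.05. The 5 genes around PAX2 lie between -0.30 and 0.24, and LRRC34, CCDC170 and PSD4 are the filled points.

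Lists of related genes are given by counts and medians beside all tested genes, whose median log2 fold change was -0.01. For each list below, the shares to compare are 5.44% of all tested genes higher in CR and 8.1% lower. In the PAX family, 5 of 9 genes were tested, PAX2 rose and PAX1 fell (20 and 38 counts in WT, 0 and 0 in CR), and the median was -0.07. PAX6, a factor of eye and pancreas, had 452 and 470 counts in WT and 737 and 655 in CR, and PAX9 had 44, 79, 42 and 59 in WT 1, WT 2, CR 1 and CR 2, neither passing (edgeR adjusted p = 0.187 and 0.700). Of 9 tested SOX genes 0 rose and 2 fell (median 0.20): SOX9, a partner of WT1 in gonad development, from 6.89 ± 0.380 to 1.27 ± 0.0613 CPM, and SOX6 from 11.7 ± 6.49 to 3.32 ± 0.764 CPM. SOX4 (30.1 ± 3.32 and 48.7 ± 0.552 CPM in WT and CR) and SOX12 (29.8 ± 5.39 and 18.8 ± 1.59 CPM) did not pass. With 1 library left out at a time, 0 to 4 SOX genes rose and 1 to 3 fell, and 1 to 3 PAX genes rose and 1 to 2 fell. A stricter low-count filter left 1 PAX gene higher and 0 lower, so the PAX1 call depended on the filter.

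Among genes of Mullerian duct formation and patterning, 20 of 31 were tested, 5 rose, 1 fell and 14 did not pass (median 0.09). Table-wide, 13.5% of tested genes were called. Besides PAX2, the homeobox genes HOXD10 (1 and 2 counts in WT, 158 and 134 in CR), HOXD11 (0 and 0, then 56 and 56) and HOXA13 rose, as did RET. RET, the GDNF receptor that Pax2 and Pax8 are known to control in the mouse Wolffian duct and kidney, rose from 7.63 ± 0.482 to 31.5 ± 4.76 CPM (edgeR adjusted p = 0.00249). RARG, a retinoic acid receptor, fell. Leaving out 1 library gave 4 to 8 higher and 0 to 3 lower. Of 13 tested LIM and EMX homeobox genes and LIM cofactors, 3 rose and 1 fell (median 0.11; 1 to 5 and 0 to 2 with 1 library left out). LMO4, a LIM-only protein, rose from 45.5 ± 4.41 to 164 ± 6.67 CPM, SSBP2 and LMO2 also rose, and the LIM homeobox gene ISL1 fell from 2.74 ± 0.493 to 0.584 ± 0.131 CPM.

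Of 20 tested partners and reported targets of PAX8, 2 rose and 3 fell (median -0.19), where 13.5% of all tested genes were called. SPP1, which encodes osteopontin, rose from 132 ± 94.9 to 1539 ± 29.5 CPM and TG, thyroglobulin, from 0.890 ± 0.134 to 2.84 ± 0.259 CPM. MUC16, the CA125 antigen, fell from 36.0 ± 19.3 to 5.70 ± 2.8 CPM, the folate receptor gene FOLR1 from 64.8 ± 21.9 to 27.7 ± 0.902 CPM, and LCN2 fell from 27 and 14 counts to 3 and 2. CDH6 and NKX2-1 had 0 counts in all libraries. The counts were 1 to 7 higher and 1 to 10 lower with 1 library left out. Of 20 tested WT1 partners and reported targets, 6 rose and 5 fell (median 0.23; 3 to 8 and 5 to 6). The growth arrest gene GAS1 rose from 1.52 ± 0.0354 to 25.9 ± 0.474 CPM, and BASP1, a WT1 corepressor, had 64 and 134 counts in WT and 0 and 0 in CR. The vitamin D receptor gene VDR fell from 103 ± 0.930 to 28.1 ± 2.89 CPM, TRO fell from 213 and 216 counts to 23 and 14, and the growth factor gene IGF2 fell from 12.9 ± 1.98 to 2.10 ± 0.326 CPM.

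Of 23 tested partners and reported targets of oestrogen receptor, 1 rose (RET) and 1 fell (PDZK1, a scaffold protein), with a median of 0.04. The share called over all tested genes was 13.5%, for this list and those that follow. PGR, TFF1 and TFF3, commonly used readouts of the receptor, had 0 counts in all libraries. CA12 (48, 9, 157 and 145 counts in WT 1, WT 2, CR 1 and CR 2) and GREB1 (82, 120, 284 and 159) did not pass. Leaving out 1 library gave 2 to 7 higher and 0 to 4 lower. Of 25 tested nuclear receptors 1 rose and 4 fell (median -0.25; 0 to 5 and 3 to 10). NR2F1 fell from 116 and 113 counts to 17 and 18, and NR4A2 rose. Of 17 tested PRDM genes and MECOM partners 1 rose, 1 fell and 15 did not pass (median 0.12; 1 to 6 higher and 0 to 4 lower with 1 library left out). The gene that fell was PRDM13, with 14 and 11 counts in WT and 0 and 0 in CR. SMAD3, at 121 ± 11.9 and 185 ± 13.6 CPM, did not pass. With a stricter low-count filter PRDM13 was not tested, and 0 of the list rose and 0 fell. Of 13 tested FOXA and endoderm-type factors 2 rose and 0 fell (median 0.29; 0 to 5 and 0 to 0): PDX1 from 0.764 ± 0.192 to 3.44 ± 0.636 CPM and GATA4 from 10 and 10 counts to 43 and 46. HNF4A (23.6 ± 5.68 and 38.7 ± 4.51 CPM) and ONECUT1 (0.512 ± 0.427 and 1.69 ± 0.424 CPM) did not pass. Of 17 tested antisense and neighbouring transcripts 3 rose and 1 fell (median -0.08; 2 to 7 and 0 to 4). LRRC34 and CCDC170 are 2 of those 3. The other is THBD, listed with FOXA2 but starting outside its 250 kb window. THBD had 0 and 1 counts in WT and 14 and 15 in CR. SYNE1, listed with ESR1 and also starting outside that factor's window, fell from 8.12 ± 1.85 to 2.70 ± 0.690 CPM.

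Marker lists of other cell states were counted in the same fit, in which 13.5% of all tested genes were called. Of 9 tested tubal secretory and ciliated markers 2 rose and 1 fell (median 0.69; 1 to 6 and 1 to 3 with 1 library left out): OVGP1, oviductal glycoprotein, had 27 and 14 counts in WT and 103 and 107 in CR, MCIDAS rose, DNAI1 (4, 0, 20 and 18 counts) did not pass, and the keratin KRT7 fell from 395 ± 203 to 5.02 ± 0.332 CPM. Of 7 tested mesothelial and ovarian surface markers 1 rose and 3 fell (median -1.25; 1 to 1 and 2 to 5), with UPK1B up from 1.46 ± 0.606 to 28.4 ± 2.14 CPM and MSLN, mesothelin, down from 191 ± 70.96 to 45.9 ± 1.03 CPM. ANXA8 fell from 34.4 ± 7.53 to 1.19 ± 0.337 CPM and LRRN4 from 6.07 ± 1.37 to 1.49 ± 0.200 CPM. Of 16 tested epithelial genes 2 rose (CDH1 and EPCAM) and 7 fell, KRT7, KRT8 and KRT18 among them (median -0.60; 1 to 5 and 5 to 10). ST14, a membrane protease gene, fell from 46.3 ± 8.53 to 1.29 ± 0.0818 CPM and MUC1 from 21.3 ± 10.3 to 3.88 ± 0.873 CPM. Of 9 tested granulosa, theca and stromal markers 0 rose and 2 fell (COL1A1 and INHBA; median 0.65; 0 to 3 and 2 to 3), FOXL2, DCN and LUM were at 0, and STAR (3, 2, 11 and 13 counts) and NR5A1 (5, 5, 16 and 11) did not pass. Of 7 tested markers of blood, endothelium and muscle 1 rose (PECAM1) and 1 fell (CDH5), with a median of -0.24 (1 to 1 and 1 to 2). DES (294, 107, 81 and 96 counts) and MYH11 (30, 33, 66 and 51) did not pass. The summed level of that last list was 86.5 and 99.5 CPM in WT and 45.9 and 41.8 CPM in CR, and KDR and MYOD1 were at 0. Fewer cells of a type and less RNA per cell cannot be told apart in these bulk libraries, and the part of these marker differences in the PAX2 result was not tested.

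**Figure D5:**
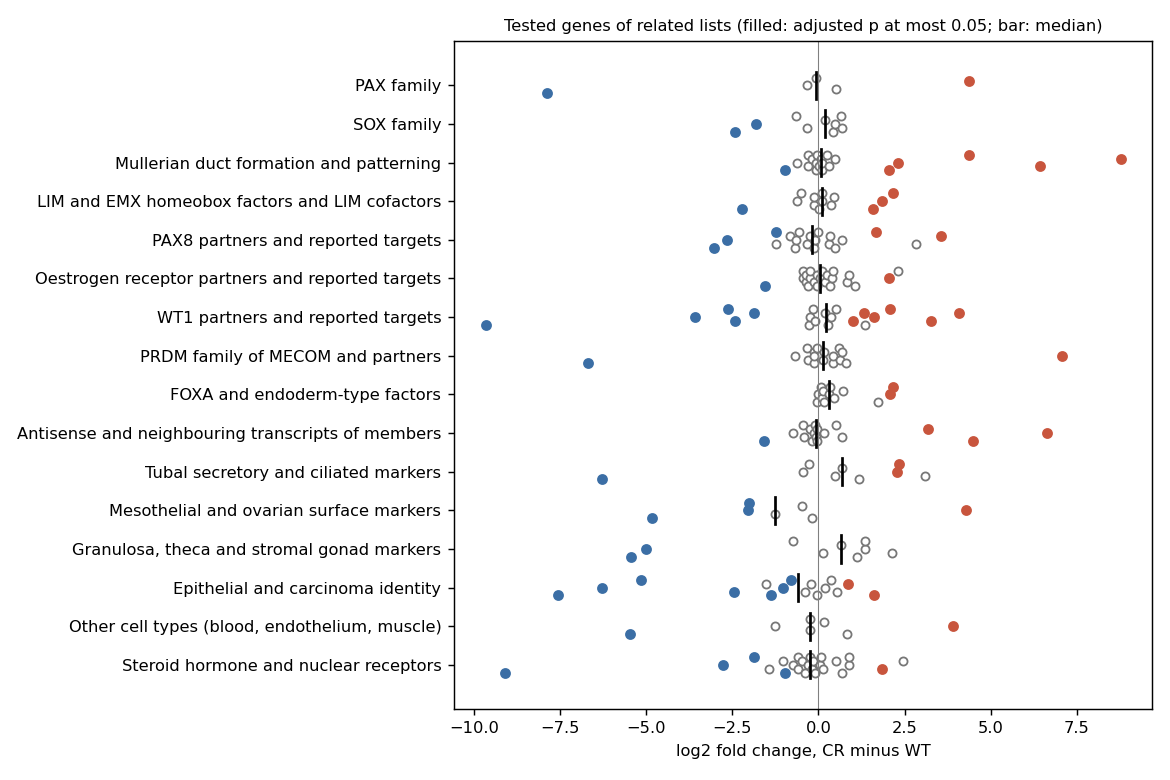
Log2 fold change, CR minus WT, of the tested genes in each of 16 lists (open points did not pass, red rose, blue fell at an adjusted p of at most 0.05; bars are list medians). Medians run from -1.25 for mesothelial and ovarian surface markers to 0.69 for tubal markers, and called genes lie on both sides of 0 in most lists.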

How the data were processed

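RNA-seq of 2 WT and 2 CR libraries of IGROV1 was analysed, with groups and replicate numbers from the sample titles. The deposited table holds raw counts per Ensembl gene made by the authors. GRCh38.p7, HTSeq, DESeq and STAR 2.5.1a are named, per the submitters' processing notes, with neither role nor order; the annotation release is not given in the sources used here; the libraries were stranded, per the labels' protocols. A second deposited table of normalized values was not used. Unmapped columns numbered 0. Rows without a symbol (20988) were tested under their identifiers.

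The fit used edgeR 4.0.16 in R 4.3.3 on all 4 libraries: TMM factors, filterByExpr (minimum count 10), robust quasi-likelihood fit, a two-sided test of group without covariates, and Benjamini-Hochberg adjustment over 17304 genes. SE was taken as |log2 fold change|/√F, and intervals (95%) use it with the test's degrees of freedom. Counting intervals are exact binomial, and floors and intervals cover counting error only. Alternatives were other factors, filters, DESeq2 1.42.0, limma-voom (limma 3.58.1), a replicate block and each library left out. An exact permutation test of 2 against 2 cannot reach the threshold and was not used. Lengths, coordinates and neighbours came from GENCODE 29 (GRCh38 primary coordinates; 57447 rows matched), and start windows from RefSeq GRCh38.p14, which held windows for PAX2, PAX8, WT1, EMX2, MECOM and ESR1. The code was tested on simulated counts.

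The 9 factors and the 16 lists (317 symbols) were chosen with earlier results of these data known. Named genes are all 9 factors, up to 4 genes with the smallest adjusted p in each list (fewer where one is not reported), called genes among neighbours, and the 3 most alike profiles; other genes were named after their values were seen. Results for some genes of the lists are not reported here.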

Additional observations from a re-analysis of the deposited data

How the results depend on the processing

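PAX2 kept its direction and its call under all 13 alternatives. Over all genes, 1454 were higher with no low-count filter (942 in the full fit), and with 1 library left out 565 to 3882 were higher and 865 to 4004 lower. PAX8 was called under no alternative that kept all 4 libraries. Its log2 fold change turned to 0.0080 with limma-voom and 0.0065 with the replicate block, and ranged from -0.46 to 0.48 with 1 library left out. SOX17 ranged from 0.36 to 0.59 and MECOM from -0.79 to -0.57 with 1 library left out. Neither these genes nor LHX1 were called under any alternative that kept all 4 libraries. List medians turned for LIM and EMX factors (-0.051 to 0.13) and PAX8 partners (-0.33 to 0.0039) with 1 library left out, and the cause was not tested. With 1 library left out, medians also crossed 0 for the PAX family (-0.07 to 0.48), SOX family (-0.09 to 0.44), oestrogen receptor (-0.05 to 0.18), neighbouring transcript (-0.12 to 0.05) and other cell type (-0.32 to 0.10) lists. With the longest transcript as length, PAX2 was 0.529% of the pair in WT and 10.5% in CR. The labels do not say that replicate numbers mark shared cultures. Deviations of same-numbered libraries correlated at -0.17 across genes. The replicate block gave 1258 higher and 1517 lower calls, with PAX2 at 4.44 (edgeR adjusted p = 3.79e-29, against 0.000537 in the full fit). The block leaves fewer residual degrees of freedom than the full fit, so its smaller p-value is not read as stronger evidence. Of the alternative values for the lists, 514 stayed within 1.5 times (counts) or 1 SD (medians) of the full fit and 108 moved further, and both counts include medians that crossed 0. The PAX family median was also above 0 with limma-voom, the replicate block and the stricter low-count filter (0.24). Few libraries and low counts limit WT1, FOXA2, ESR1 and EMX2.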
